A study of Mus musculus with 5 samples.

Results

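Endoplasmic reticulum (ER) stress and chaperone genes were followed through the cell types of the injured mouse kidney at 48 hours and day 10. The 35 members were chosen by gene symbol from what the genes are known to do, and all 35 were found among the 32285 annotated genes. They comprised 9 chaperones and co-chaperones, 6 disulfide isomerases and lectin chaperones, 9 genes of ER-associated degradation and the translocon, 4 stress sensors and their transcription factors, and 7 genes of the integrated stress response. The samples were kidney cells from 5 mice, whose titles carry IRI (an abbreviation generally used for ischemia-reperfusion injury). Mice 1 and 2 were taken at 48 hours, and mice 3, 4 and 5 at day 10. RNA was counted per cell from its 3′ end on a 10x Genomics droplet platform, in unique molecular identifiers (UMIs). The labels give no strain, sex, age, genotype or batch, every kidney was injured, and no uninjured kidney was analysed here, so the comparison is between 2 times after injury.

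Proteins that enter the secretory pathway fold in the ER with the help of Hspa5 (BiP), Hsp90b1 (GRP94) and their partners, form disulfide bonds through protein disulfide isomerases, and are retained by the lectin chaperones calnexin (Canx) and calreticulin (Calr) until folded. When unfolded protein accumulates, the sensors Ern1 (IRE1), Eif2ak3 (PERK) and Atf6 raise the transcription of these genes, partly through the transcription factor Xbp1, while PERK also starts the integrated stress response through Atf4, Ddit3 (CHOP), Atf3 and Trib3. The thick ascending limb of the nephron makes and secretes large amounts of uromodulin, a disulfide-rich glycoprotein, and the proximal tubule is a main site of damage after ischemia.

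The promoters carry the sites by which several of these genes are known to be joined into 1 response, so the stretches that hold them are shown first. RefSeq promoters of the mouse build GRCm38.p6, from 250 bases before to 50 bases after each start, were given for 31 of the 35 members, the exceptions being Hyou1, Manf, Atf6 and Derl1. The ER stress element, searched on both strands as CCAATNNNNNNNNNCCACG, was present in 9 of 31 members and in 0.1658% of 17492 coding genes, counting a match in any promoter of a gene. Those 9 were Hspa5, Hsp90b1, Creld2, Dnajc3, Pdia6, Calr, Canx, Syvn1 and Derl3. The members were chosen as known genes of this response, so their higher share is a description and not a test. In the lines below, written 5′ to 3′ along the strand of the gene, capitals mark the fixed letters of a matched element, and CGTGG followed by ATTGG is the same element on the other strand. The windows lie at chr2:34772010-34772058 (plus strand) for Hspa5, chr10:86705518-86705671 (minus strand) for Hsp90b1, chr15:88819505-88819553 (plus strand) for Creld2, chr14:118937812-118937860 (plus strand) for Dnajc3, chr19:6046517-6046565 (plus strand) for Syvn1 and chr10:75893227-75893275 (plus strand) for Derl3, all upstream of the start.
Hspa5: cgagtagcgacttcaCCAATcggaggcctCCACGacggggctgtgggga
Hsp90b1: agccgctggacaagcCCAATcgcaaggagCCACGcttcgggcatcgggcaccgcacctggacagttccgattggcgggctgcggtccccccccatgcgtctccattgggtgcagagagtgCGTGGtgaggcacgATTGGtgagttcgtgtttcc
Creld2: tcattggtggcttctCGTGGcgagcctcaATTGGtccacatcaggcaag
Dnajc3: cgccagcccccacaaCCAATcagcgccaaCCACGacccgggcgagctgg
Syvn1: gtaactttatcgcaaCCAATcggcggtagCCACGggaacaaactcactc
Derl3: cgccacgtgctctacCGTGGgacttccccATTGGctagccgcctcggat

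The shorter ER stress element II, which is ATTGG, any 1 base and CCACG, was found on either strand in Dnajb11 and Herpud1 and in 0.06289% of coding genes. The C/EBP-ATF element through which ATF4 and CHOP are known to act, TGATGCAA, was found on either strand in Herpud1, Atf3 and Chac1 and in 1.012% of coding genes. The unfolded protein response element TGACGTGG was in 0 of 31 members and in 0.8232% of coding genes. Herpud1, at chr8:94386302-94386402 on the plus strand, held both of the first 2, and is shown with Atf3, at chr1:191183421-191183458 on the minus strand, because the time effect of Herpud1 differed between nephron segments and Atf3 rose in the immune clusters. Capitals again mark the matched letters, and TTGCATCA is TGATGCAA read on the other strand. A match describes the letters in these windows and not a site in use.
Herpud1: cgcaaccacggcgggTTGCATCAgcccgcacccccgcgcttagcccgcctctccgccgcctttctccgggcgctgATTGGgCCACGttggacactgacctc
Atf3: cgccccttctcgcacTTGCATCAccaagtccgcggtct

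The 5 libraries held 3720 to 5912 cells each after the authors' filter, 23797 in all with 18 cell labels in 16 clusters, and 45887945 to 78351722 UMIs per library. Median depth was 5823 and 6260 UMIs per cell at 48 hours and 10328.5 to 11750 at day 10, and libraries shared 3 to 10 cell barcodes per pair. The members made up 0.579 and 0.488% of all UMIs at 48 hours and 0.543, 0.374 and 0.363% in mice 3, 4 and 5. Mouse 3 thus lay nearer to the 48-hour mice than to the other day-10 mice. Over 20 tested types and labels, the share of members with mouse 1 above mouse 2 was 50 to 86.2% and exceeded that of all genes in 19, the exception being immune cluster 10 (11 of 22 members, 55.6% of all genes). The share with mouse 3 above both mice 4 and 5 was 51.6 to 90.6% and exceeded that of all genes in all 20. In the proximal tubule mouse 1 was above mouse 2 for 24 of 34 members (46.6% of all genes) and mouse 3 above both mice 4 and 5 for 25 of 34 (29.3% of all genes). The counts of called members within each type were therefore also taken without mice 1 and 3. That leaves 1 mouse against 2 and assumes that the lone mouse varies like the others. These mice were picked because the members themselves were high in them. Counts under this and the other alternative settings stand without the share of all genes called there. They show how far the calls depend on the setting and are not a result about the members.

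Levels are given as UMIs of a gene per 1e+06 UMIs of a cell type in a mouse (CPM), and they differed widely between cell types. The labels come from a clustering of the same cells, so these levels are a description with no test. Over 20 labels and immune clusters, the summed level of the 35 members was highest in podocytes, the filtering cells of the glomerulus, at 10406 and 9418 CPM in mice 1 and 2 and 9578, 5830 and 5827 CPM in mice 3, 4 and 5. Podocytes were above the next group in 5 of 5 mice, although the label held only 15 to 49 cells per mouse. Next came immune cluster 0 at 5919 CPM (SD 2054, n = 5), interstitial cells at 5729 CPM (SD 1494) and the thick ascending limb at 5025 CPM (SD 1581), which changed places from mouse to mouse. The lowest level was in the proximal label Lrp2- S2/3, at 1636 CPM (SD 226), below its neighbour in 5 of 5 mice. That label was also shallow, with median depths of 1862 to 2406 UMIs per cell. Every other neighbouring pair in the order was in that order in 2 to 4 of 5 mice.

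**Figure D1:**
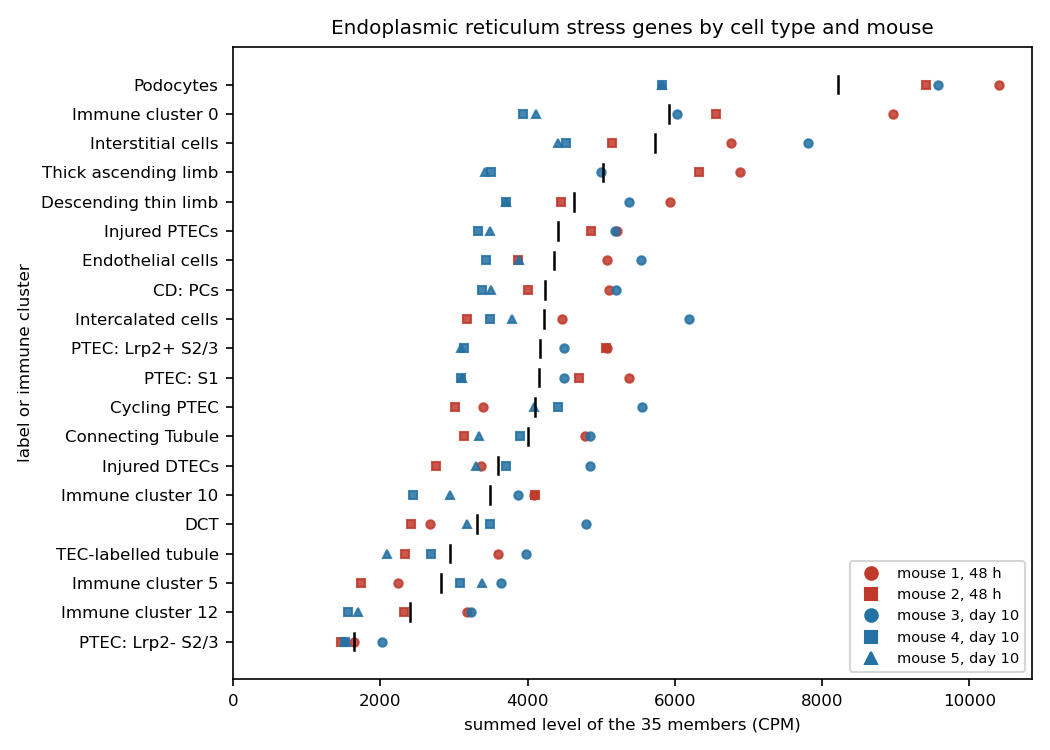
Summed level of the 35 members in CPM (horizontal axis) for 20 cell labels and immune clusters (vertical axis); points are single mice, red at 48 hours and blue at day 10, and black bars are means of 5 mice. Podocytes (mean 8212 CPM) stand above every other group and the Lrp2- S2/3 proximal label (1636 CPM) below them.

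The order differed by role. Podocytes had the highest mean of the 20 groups for 16 of the 35 members. Among them were Hspa5 at 1042 CPM (SD 530, n = 5), the protein disulfide isomerase Pdia6 at 715 CPM (SD 234) and Selenos, a selenoprotein of the degradation machinery, at 357 CPM (SD 69.9). For Creld2, Dnajb9, Pdia3 and Ern1 they were above the next group in only 3 of 5 mice, and for Dnajc3, Canx and Sel1l in 4 of 5. No UMI of Chac1, a glutathione-degrading enzyme, was seen in podocytes, which held 107774 to 255680 UMIs per mouse. The median level of Chac1 over the 20 groups was only 0.255 CPM, so podocytes are not shown to lie below the others. The integrated stress response members were ordered otherwise. Atf4, Atf3, Ddit3 and Ppp1r15a (GADD34, which lets translation resume) had their highest mean in the tubule cells labelled TEC. That label was shallow, with median depths of 1556 to 1687 UMIs per cell, and the part of depth in these levels was not tested. Ddit3 in TEC-labelled cells measured 379 and 24.5 CPM in mice 1 and 2 and 91.3, 94.4 and 37.0 CPM in mice 3, 4 and 5, so that mouse 1 stood far above the rest. Without mouse 1 the order for Ddit3 turned, with 94.96 CPM in immune cluster 5 and 61.8 CPM in TEC-labelled cells, and podocytes came level with TEC-labelled cells for Atf4 (105.7 and 105.0 CPM). Ppp1r15a was no longer highest there without mouse 4, and each of Atf4, Atf3 and Ppp1r15a was above the next group in 3 of 5 mice. Immune cluster 5 was highest for Xbp1, at 367 CPM (SD 146), and for Eif2ak3, Derl1 and Chac1, the last above the next group in only 3 of 5 mice. Immune cluster 0 was highest for Sdf2l1, a partner of Hspa5, at 162 CPM (SD 94.1), and, by margins that held in 3 of 5 mice, for Edem1 and Atf6.

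**Figure D2:**
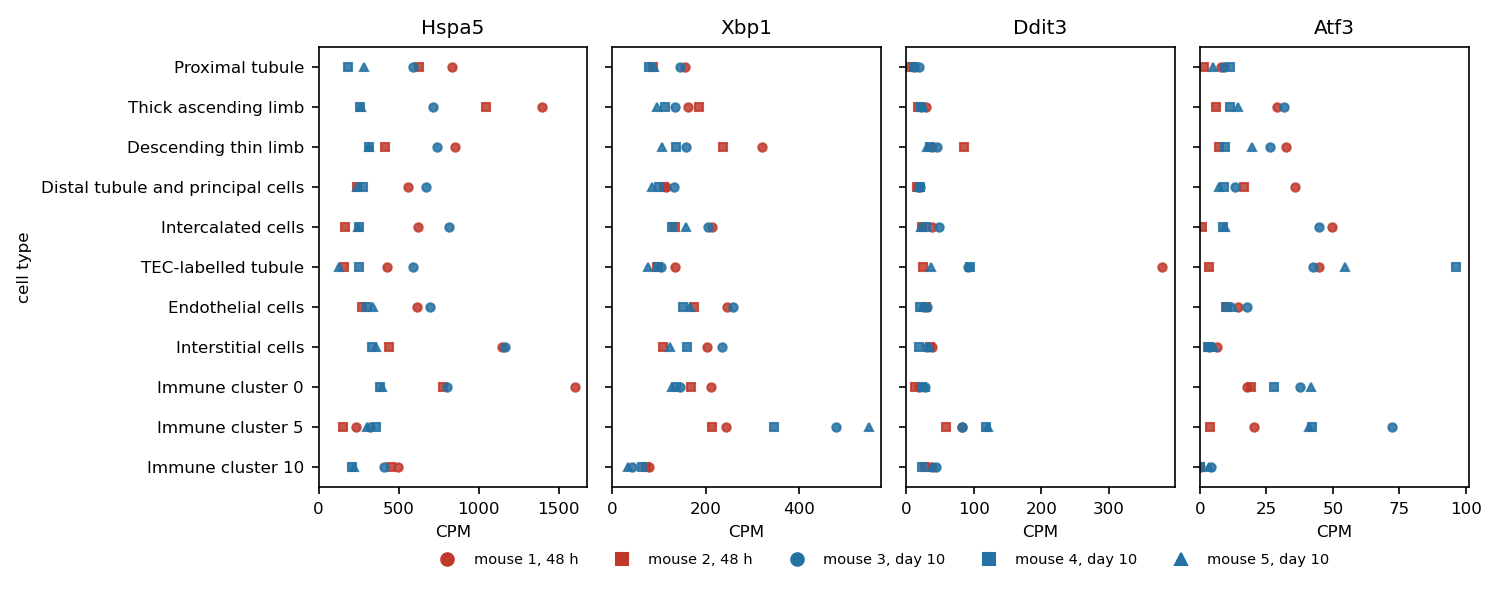
Level of Hspa5, Xbp1, Ddit3 and Atf3 in CPM (horizontal axis, 1 panel per gene) in the 11 tested cell types (vertical axis). Each point is 1 mouse, red at 48 hours and blue at day 10. At 48 hours Hspa5 was highest in immune cluster 0 and the thick ascending limb, and Xbp1 in the descending thin limb. Over all 5 mice the mean of Xbp1 was highest in immune cluster 5 (367 CPM). The single Ddit3 point of 379 CPM is mouse 1 in TEC-labelled cells.

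The time comparison asked which members differed between 48 hours and day 10 within a cell type. For each mouse the UMIs of a type were added up, and each gene was tested with edgeR's quasi-likelihood test with Benjamini-Hochberg adjustment over all genes of the type, at 0.05, in 11 types. In the words used here a member rose or fell only where it passed that test. Members fell most often in the thick ascending limb, where 21 of 34 tested members were lower at day 10 and 0 were higher. Of all 12797 genes tested there, 5.38% were lower and 4.98% higher. The median log2 change of the members was -0.76, against 0.00 over all genes, and 32 of 34 were negative, against 49.9% of all genes. In 21 of 34 members every day-10 mouse was below both 48-hour mice, against 6.13% of all genes, and the members' summed level was 6879 and 6322 CPM at 48 hours and 4996, 3504 and 3423 CPM at day 10.

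**Figure D3:**
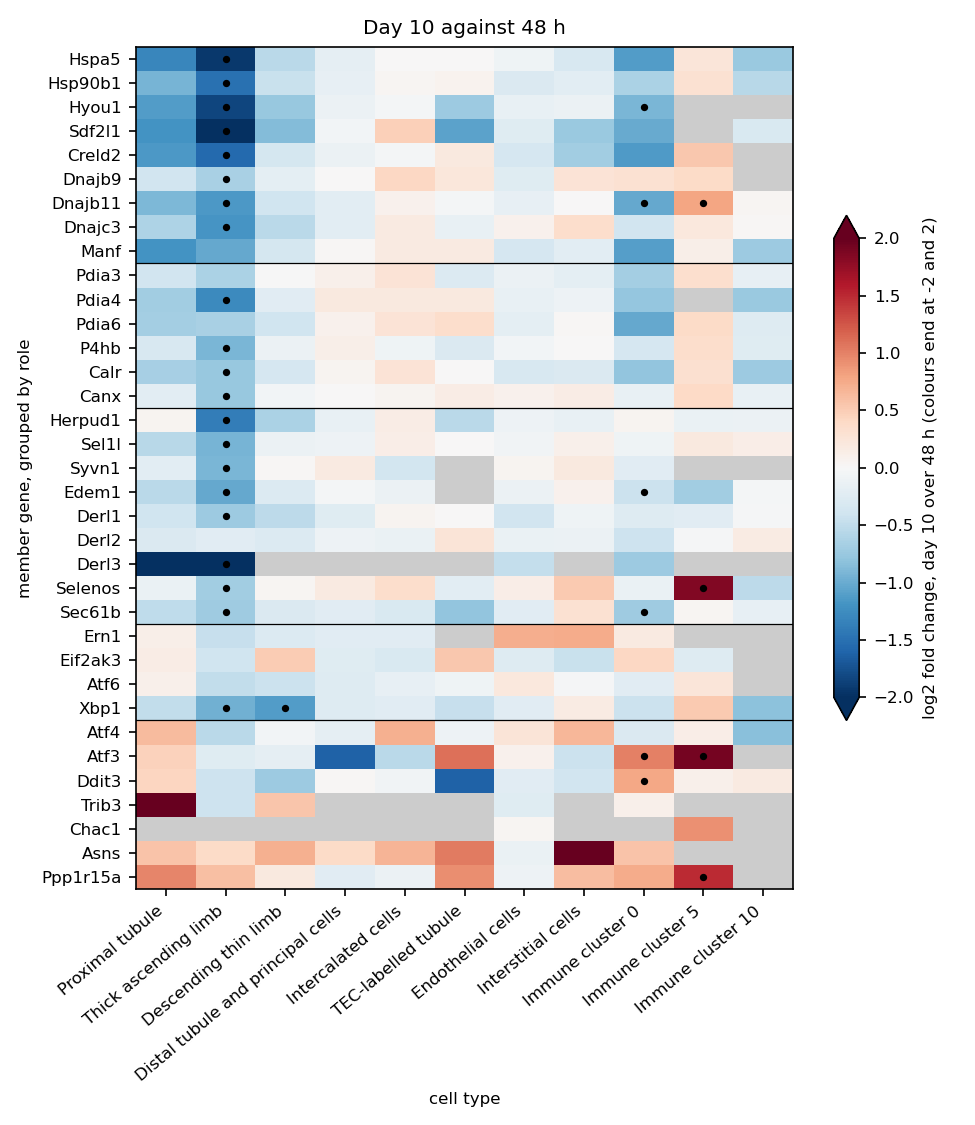
Log2 change from 48 hours to day 10 for the 35 members (vertical axis, by role) in 11 cell types (horizontal axis); blue is lower and red higher at day 10, colours end at -2 and 2, dots mark members that passed the test and grey squares were not tested. The dots gather in the thick ascending limb column, with 21 falls.

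Among the chaperones of the thick ascending limb, 8 of 9 fell. Hspa5, the main ER chaperone, measured 1398 and 1048 CPM at 48 hours and 713, 259 and 266 CPM in mice 3, 4 and 5 at day 10. The groups did not overlap, and mouse 3 lay between the 48-hour mice and the other 2 day-10 mice; the log2 change was -1.92 (SE 0.42, adjusted p = 0.0323). Hsp90b1 showed the same order at 1035 and 980 CPM and then 637, 361 and 381 CPM, a log2 change of -1.49 (SE 0.24, adjusted p = 0.0138). Hyou1, a large chaperone that exchanges nucleotide on Hspa5, measured 59.3 and 77.9 CPM and then 28.7, 22.7 and 21.6 CPM, a log2 change of -1.84 (SE 0.17, adjusted p = 0.00277). Here the 3 day-10 mice lay close together, mouse 3 included, and the call was kept whichever mouse was left out.

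Sdf2l1 had the largest change of the chaperones, from 85.4 and 74.0 CPM to 37.8, 10.1 and 12.7 CPM (log2 change -2.27, SE 0.45, adjusted p = 0.0244). Creld2, a stress-induced ER protein, went from 57.3 and 54.8 CPM to 35.5, 20.4 and 16.0 CPM (log2 change -1.56, SE 0.28, adjusted p = 0.0190). The co-chaperones of Hspa5 followed with narrower spreads. Dnajc3 (p58IPK) measured 263 and 327 CPM and then 190, 170 and 142 CPM (log2 change -1.17, SE 0.16, adjusted p = 0.00903), and Dnajb11 (ERdj3) 125 and 133 CPM and then 91.8, 68.7 and 62.7 CPM (log2 change -1.15, SE 0.17, adjusted p = 0.0113). Dnajb9 fell with a smaller log2 change of -0.64 (adjusted p = 0.0305). Manf, a secreted ER stress-induced factor, did not pass, at -1.03 (adjusted p = 0.0751). The promoter stretches shown above belong to 4 of these fallen genes, Hspa5, Hsp90b1, Creld2 and Dnajc3. Sdf2l1 and Dnajb9 fell without a match to any element searched. Among the members with the ER stress element whose stretch is not shown, Calr and Canx fell and Pdia6 did not pass. The part of the elements in these changes was not tested.

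**Figure D4:**
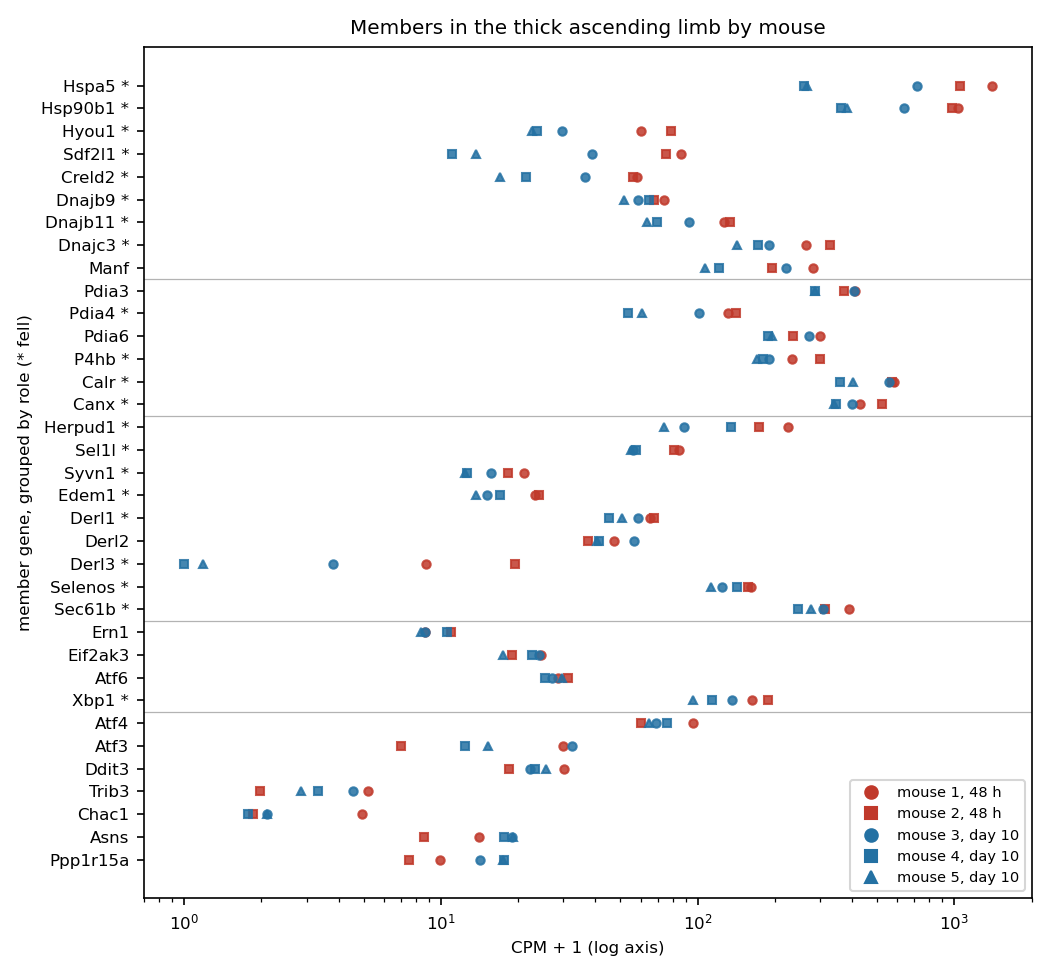
CPM plus 1 on a log axis (horizontal) of each of the 35 members (vertical, by role) in the thick ascending limb. Points are mice, red at 48 hours and blue at day 10, and an asterisk marks the 21 members that fell. The 2 times are apart for 8 of 9 chaperones, all but Manf, and overlap for 4 of the 6 tested integrated stress response members.

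Of the disulfide isomerases and lectin chaperones, 4 of 6 fell in the thick ascending limb. Pdia4 measured 130 and 140 CPM at 48 hours and 100, 52.7 and 59.7 CPM at day 10 (log2 change -1.27, SE 0.25, adjusted p = 0.0237). P4hb, the classical protein disulfide isomerase, Canx and Calr fell by 0.92, 0.76 and 0.75 on the log2 scale. Pdia3 and Pdia6 were at -0.63 and -0.65 and did not pass, with adjusted p-values of 0.0653 and 0.0752.

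Of the degradation and translocon members, 8 of 9 fell there, with only the retrotranslocation factor Derl2 not passing (log2 change -0.23, adjusted p = 0.470). Herpud1, which recruits the ubiquitin ligase complex, measured 224 and 173 CPM and then 87.3, 134 and 73.0 CPM (log2 change -1.38, SE 0.25, adjusted p = 0.0190), with mouse 4 the highest of the day-10 mice. Derl3 was scarce and had the largest change of all, from 7.75 and 18.5 CPM to 2.81 CPM in mouse 3, 0.184 CPM in mouse 5 and no UMI among the 3869169 UMIs of mouse 4 (log2 change -3.67, SE 0.78, adjusted p = 0.0288). Its levels rested on 265 UMIs at 48 hours and 24 at day 10, the change was -7.03 without mouse 3, and the call was lost without mouse 2, 4 or 5. Sel1l, the scaffold of the Hrd1 ubiquitin ligase, measured 84.0 and 80.0 CPM and then 55.3, 56.3 and 54.0 CPM, a log2 change of -0.93 (adjusted p = 0.00611) with little spread within either time (its values are given here because they were seen to be tight). The ligase itself, Syvn1, fell by 0.92, the mannosidase-like Edem1 by 1.03, Derl1 by 0.73, Selenos by 0.70 and the translocon subunit Sec61b by 0.70.

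Of the 4 sensors and their transcription factors 1 fell, against 5.38% of all genes, and all 4 log2 changes were negative. A difference between this group and the chaperones was not tested. Xbp1 fell, from 162 and 187 CPM to 135, 112.9 and 95.3 CPM (log2 change -0.97, SE 0.16, adjusted p = 0.0154), while Ern1, Eif2ak3 and Atf6 were at -0.46, -0.39 and -0.49 with adjusted p-values of 0.214, 0.240 and 0.0576. None of the 6 tested integrated stress response members passed edgeR's quasi-likelihood test in the thick ascending limb, and 2 had an unadjusted p under 0.05 (28.9% of all genes). The groups overlapped for 4 of the 6, and for Asns and Ppp1r15a every day-10 mouse was above both 48-hour mice, against 51.2% of all genes. Atf4 measured 94.8 and 59.5 CPM and then 67.6, 74.7 and 63.4 CPM (log2 change -0.54, adjusted p = 0.131). Ddit3 measured 29.1 and 17.5 CPM and then 21.2, 22.2 and 24.7 CPM (log2 change -0.42, adjusted p = 0.260), and Atf3 29.0 and 6.0 CPM and then 31.6, 11.4 and 14.2 CPM (log2 change -0.24, adjusted p = 0.829). Without mouse 2 both Atf4 (-0.85) and Ddit3 (-0.74) passed. The direction of Ddit3 turned without mouse 1 (0.03), and that of Atf3 turned without mouse 1 (1.37) and without scaling factors (0.13).

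The count of 21 falls rested on 5 mice: it was 24 falls with 2 rises without mice 1 and 3, 10 without mouse 4, 1 without mouse 5, and 10 with cells under 20% mitochondrial UMIs only. With library totals alone in place of scaling factors, the median change of all genes moved by 0.36, the higher share of all calls went from 48.1 to 92.7%, and the members gave 14 falls and 1 rise. Mitochondrial UMIs took a median of 23.0 and 21.8% per thick limb cell at 48 hours and 6.89 to 8.70% at day 10. The 8 markers of injured tubule summed to 97552 and 83882 CPM and then 41493 to 53881 CPM there, and the 9 macrophage markers to 45.7 and 56.4 CPM and then 863 to 1200 CPM. The part of these shifts in the result was not tested. The markers of the thick limb itself (Umod, Slc12a1, Cldn16, Cldn10 and Kcnj1) summed to 12321 and 20324 CPM and then 10761 to 12217 CPM. The 5 plasma cell markers outside the 35 members summed to 74.8 and 111.2 CPM and then 68.04 to 79.1 CPM, with overlap between times, and Tnfrsf17 was at 0.

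The share of thick limb cells with at least 1 Hspa5 UMI was compared with every cell thinned to 2000 UMIs. It was 71.4% (exact 95% interval 67.8 to 74.8) and 58.3% (52.8 to 63.6) at 48 hours and 63.0% (58.2 to 67.7), 35.9% (29.2 to 43.1) and 38.2% (32.6 to 44.2) at day 10. Mice 4 and 5 were below both 48-hour mice, whereas mouse 3 lay between them. Without thinning the shares were 89.5 to 97.6%, and 0 to 12 shallower cells per mouse were left out. No cell type here lacks Hspa5, so no background share can be set beside these, and the intervals cover counting error only.

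In the proximal tubule 0 of 34 tested members passed edgeR's quasi-likelihood test, against 3.22% of all genes. At an unadjusted p under 0.05 there were 17 of 34, against 22.7% of all genes, and DESeq2 called 6. All 9 chaperones had a negative log2 change with a median of -1.11, and in 7 of 9 every day-10 mouse was below both 48-hour mice, against 8.12% of all genes. Of all genes 47.7% were negative. All 6 tested integrated stress response members had a positive log2 change with a median of 0.60. In 4 of 6 every day-10 mouse was above both 48-hour mice, a share near the 43.1% of all genes. Other targets of that response were mixed, with 15 of 34 positive and a median of -0.04.

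Hspa5 in the proximal tubule measured 834 and 626 CPM at 48 hours and 591, 182 and 281 CPM at day 10. Mouse 3 lay just below mouse 2, and the log2 change of -1.31 (SE 0.46) did not pass (adjusted p = 0.165). Hyou1 measured 28.8 and 37.1 CPM and then 24.3, 13.7 and 15.8 CPM (log2 change -1.11, adjusted p = 0.0746). Manf measured 226 and 165 CPM and then 164, 61.8 and 78.0 CPM (log2 change -1.20, adjusted p = 0.155), with mouse 3 level with mouse 2. Xbp1 overlapped between times, at 156 and 87.2 CPM and then 145, 78.7 and 88.4 CPM (log2 change -0.49, adjusted p = 0.443).

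Atf4, the transcription factor at the centre of the integrated stress response, measured 38.4 and 20.8 CPM at 48 hours and 67.4, 56.5 and 42.4 CPM at day 10. Every day-10 mouse was above both 48-hour mice, but the log2 change of 0.63 did not pass (adjusted p = 0.280). Ppp1r15a went from 3.38 and 1.80 CPM to 6.59, 7.31 and 5.10 CPM (log2 change 0.98, adjusted p = 0.159). Trib3, a pseudokinase induced by Ddit3, rested on 6 and 53 UMIs at 0.202 and 0.171 CPM and then 1.55, 1.52 and 0.486 CPM (log2 change 2.29, adjusted p = 0.146). Ddit3 and Atf3 overlapped between times, at log2 changes of 0.43 and 0.47 (adjusted p = 0.460 and 0.704). For Atf3 the direction turned without mouse 2 (-0.27).

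Without mice 1 and 3 the proximal tubule gave 15 called members, 13 lower and 2 higher at day 10, in place of 0, and without mouse 3 alone it gave 1. The share of all genes called is not given for these leave-outs, so the counts are not read as a result about the members. Library totals alone moved the median change of all genes by 0.26, took the higher share of all calls from 39.8 to 72.3%, and left the members at 0 calls. The median mitochondrial share was similar at both times, at 17.5 to 18.4% and 18.3 to 19.7%. The makeup of the merged type differed between mice. The label Injured PTECs held 14514951 of 19849795 UMIs in mouse 1 and 3262879 of 11688619 in mouse 2. At day 10 it held 8460051 of 21256646 in mouse 3, 1269684 of 6570712 in mouse 4 and 7109068 of 20588511 in mouse 5. The part of this makeup in the comparison with the thick ascending limb was not tested. The macrophage markers summed to 165 and 153 CPM at 48 hours and 1041 to 1643 CPM at day 10, and their part in these values was not tested.

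The authors' labels within the tubule gave a few calls that the merged type did not. In S1 cells, the first proximal segment, 1 of 33 tested members fell, against 2.43% of all genes: Hyou1, from 41.1 and 39.1 CPM to 21.0, 14.1 and 18.2 CPM (log2 change -1.29, SE 0.20, adjusted p = 0.0114). It was not called without mouse 1 (0.0527), mouse 2 (0.0759) or mouse 5 (0.0574) or in cells under 20% mitochondrial UMIs (0.140), and without mice 1 and 3 it was called (adjusted p = 0.000376) with 10 other falls and 2 rises. DESeq2 called 2 falls in the label. In the cells labelled Injured PTECs 3 of 34 tested members fell, against 3.12% of all genes. These were Dnajb11, from 104 and 99.0 CPM to 83.2, 59.9 and 59.4 CPM (log2 change -0.99, adjusted p = 0.0421), Sel1l, from 64.3 and 72.3 CPM to 56.4, 54.3 and 46.8 CPM (-0.79, adjusted p = 0.0420), and Edem1, from 30.4 and 40.5 CPM to 22.9, 24.4 and 22.9 CPM (-0.999, adjusted p = 0.0331). All 3 lost their call without scaling factors, where the median of all genes moved by 0.41. Dnajb11 and Sel1l lost it without any 1 mouse, and Edem1 without any 1 mouse except mouse 1. The label gave 6 falls and 1 rise without mice 1 and 3, 9 falls and 1 rise with DESeq2, and 2 rises and 0 falls without scaling factors.

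In the distal convoluted tubule 1 of 31 tested members rose, against 0.391% of all genes. It was Sdf2l1, at 2.64 and 2.57 CPM and then 28.5, 22.1 and 18.4 CPM (log2 change 2.90, SE 0.59, adjusted p = 0.0466), whereas it fell in the thick ascending limb. The 48-hour level rested on 3 UMIs against 70 at day 10, a ratio of 8.62 with an exact 95% interval of 2.83 to 42.8 for counting error alone, and the call was lost without any 1 mouse, without mice 1 and 3 and without mitochondrial genes, whereas DESeq2 and library totals alone gave 2 rises each. The other labels tested had 0 members called by edgeR's quasi-likelihood test: Lrp2+ S2/3 (1.07% of all genes called), Lrp2- S2/3 (1.43%), connecting tubule (0.0104%), principal cells (0.0628%) and Injured DTECs (0.199%). At an unadjusted p under 0.05 these had 15 members (18% of all genes), 8 (13.4%), 1 (6.69%), 5 (10.6%) and 4 (10.6%) in the same order. DESeq2 called 2 members in Lrp2+ S2/3, 1 in Injured DTECs and 0 in the other 3 labels, and edgeR called 0 in all 5 without mice 1 and 3.

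Whether the thick ascending limb and the proximal tubule differed in their time effect was tested directly, with the mouse as a block. The difference passed for 9 of 35 members, and in all 9 the change in the proximal tubule lay above that in the thick limb, against 3.72% of all genes. At an unadjusted p under 0.05 there were 21, against 26.2% of all genes. Herpud1 had the clearest difference, 1.49 on the log2 scale (SE 0.17, adjusted p = 0.00399): it measured 130 and 109 CPM and then 137, 179 and 131 CPM in the proximal tubule (log2 change 0.05), and fell in the thick limb. Atf4 differed by 1.202 (SE 0.20, adjusted p = 0.0136), with all day-10 mice above both 48-hour mice in the proximal tubule and mixed values in the thick limb. Sdf2l1 differed by 1.17 (SE 0.19, adjusted p = 0.0125), being lower at day 10 in both segments but less so in the proximal tubule.

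Chac1, a target of Atf4 and Ddit3, had a difference of 3.38 (SE 0.82, adjusted p = 0.0440) on few counts. It did not pass the low-count filter in either segment alone and entered only the joint fit of both. In the thick limb only mouse 1 stood above the day-10 mice, and mouse 2 lay within their range. It measured 0.252 and 0.0856 CPM and then 1.27, 0.304 and 0.389 CPM in the proximal tubule (6 and 37 UMIs), and 3.94 and 0.856 CPM and then 1.10, 0.775 and 1.11 CPM in the thick limb (65 and 18 UMIs). The remaining 5 were the chaperone Hyou1 (0.74), Pdia4 (0.62), P4hb (0.61), Canx (0.56) and Selenos (0.60). Hspa5 and Xbp1 differed by 0.64 and 0.53, which did not pass (adjusted p = 0.0817 and 0.313), so for these a difference between the segments was not shown. Without the mouse block 0 members passed, and leaving out 1 mouse gave 2 (mouse 5) to 8 (mouse 4), with 3 without mouse 2 and 3 without mouse 3.

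**Figure D5:**
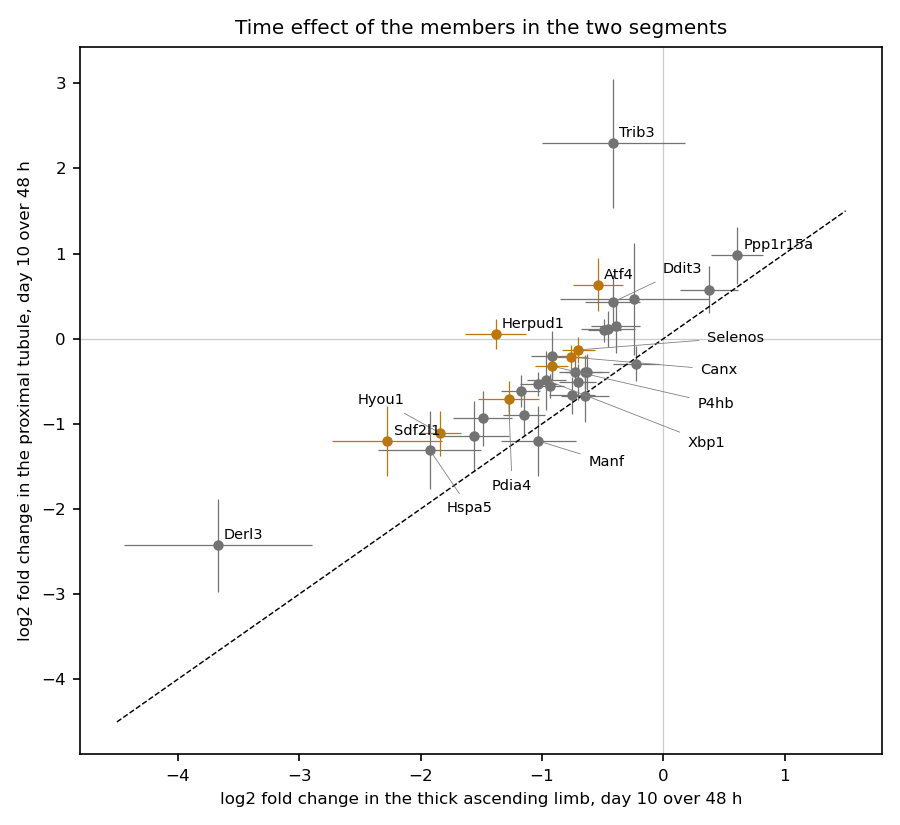
Log2 change from 48 hours to day 10 in the thick ascending limb (horizontal axis) and the proximal tubule (vertical axis) for the 34 members tested in both; bars are 1 SE, the dashed line marks equal effects and orange marks the members whose effects differ between segments. Herpud1 lies near 0 in the proximal tubule (0.05) and at -1.38 in the thick ascending limb, and most points lie above the line.

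Set against endothelial cells in the same way, the proximal tubule differed for 1 of 35 members, Hspa5, with a change lower by 1.38 (SE 0.26, adjusted p = 0.0442), against 0.514% of all genes. In endothelial cells Hspa5 measured 615 and 271 CPM and then 694, 304 and 341 CPM, so that mice 1 and 3 were high at both times. Set against immune cluster 0, the difference passed for Dnajb9 alone (-0.78, SE 0.16, adjusted p = 0.0360), against 4.05% of all genes. Set against the distal tubule with principal cells it passed for 0 of 34 in edgeR's quasi-likelihood test, against 0.304% of all genes. There 18 members had an unadjusted p under 0.05, against 15% of all genes, and 10 members were called without mouse 1. Both of the single calls were lost without the block and without mouse 2, 3 or 5, and that of Hspa5 also without mouse 4. No other tool was run on these differences.

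The immune label was read by its deposited clusters. Immune cluster 0 carried all 9 macrophage markers, which summed to 20168 and 20074 CPM at 48 hours and 64037 to 74428 CPM at day 10. In it 4 of 34 tested members fell, against 12.5% of all genes, and 2 rose, against 11.5%, shares near or below those of all genes. Sec61b fell from 581 and 550 CPM to 378, 292 and 334 CPM (log2 change -0.70, SE 0.13, adjusted p = 0.0141), Dnajb11 from 200 and 156 CPM to 110.6, 69.7 and 73.8 CPM (-1.02, adjusted p = 0.0246), and Hyou1 from 51.7 and 39.5 CPM to 31.6, 19.3 and 19.0 CPM (-0.91, adjusted p = 0.0487). Edem1 fell from 102 and 111.7 CPM to 78.7, 81.4 and 69.9 CPM (-0.43, adjusted p = 0.0472).

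Atf3, a stress-induced repressor, rose in immune cluster 0 from 17.5 and 19.2 CPM to 37.5, 27.7 and 41.7 CPM (log2 change 1.00, SE 0.20, adjusted p = 0.0167). Ddit3 rose from 18.2 and 13.1 CPM to 27.0, 22.7 and 27.3 CPM (0.77, SE 0.18, adjusted p = 0.0266). Every day-10 mouse was above both 48-hour mice for these 2 genes, and the share of all genes so ordered in this cluster is not given. For Atf4 every day-10 mouse was below, at 78.0 and 78.2 CPM and then 60.7, 69.6 and 54.1 CPM, without passing (-0.29, adjusted p = 0.172). Hspa5 measured 1603 and 775 CPM and then 799, 382 and 394 CPM (-1.12, adjusted p = 0.0956), and Xbp1 212 and 169 CPM and then 145, 136 and 127 CPM (-0.43, adjusted p = 0.0558). The count of 6 was 0 without mouse 1, mouse 2, mouse 5 or mice 1 and 3, 13 without mouse 3, 11 without mouse 4, and 12 with DESeq2. The cluster's 7 neutrophil markers summed to 1420 and 3260 CPM at 48 hours and 52.6 to 99.4 CPM at day 10, and their part in the result was not tested.

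Immune cluster 5 carried neutrophil markers, at 162799 and 215977 CPM at 48 hours and 55952 to 63594 CPM at day 10. Members there differed in the other direction, with 4 of 27 tested rising, against 7.79% of all genes, and 0 falling, against 10.7%. Selenos rose from 36.2 and 27.6 CPM to 167, 137 and 169 CPM (log2 change 1.85, SE 0.21, adjusted p = 0.000472) and kept its call whichever mouse was left out. Atf3 rose from 20.2 and 3.83 CPM to 72.2, 42.0 and 41.1 CPM (1.92, SE 0.54, adjusted p = 0.0316), a change of 3.18 without mouse 1 and of 0.92, no longer called, without mouse 2. Ppp1r15a rose from 12.6 and 8.42 CPM to 52.9, 26.7 and 36.2 CPM (log2 change 1.4999, SE 0.37, adjusted p = 0.0184), and Dnajb11 from 38.7 and 39.8 CPM to 85.01, 87.7 and 115 CPM (0.79, SE 0.22, adjusted p = 0.0285).

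Xbp1 in immune cluster 5 measured 245 and 213 CPM and then 480, 347 and 551 CPM without overlap, yet its log2 change of 0.52 after scaling did not pass (adjusted p = 0.112). Hspa5, Ddit3 and Atf4 were at 0.25, 0.10 and 0.13 (adjusted p = 0.426, 0.797 and 0.742), and the direction of each turned without mouse 2. CPM and scaled changes parted in this cluster: with library totals alone the median of all genes moved by 0.53, the higher share of all calls went from 42.1 to 89.7%, and 14 members rose. The count of 4 was 1 without mouse 2, without mouse 5, and with DESeq2. Summed UMIs of the cluster were 262201 to 623451 per day-10 mouse, from 90 to 229 cells.

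Over the merged immune label 1 of 35 tested members rose, against 10% of all genes, and 1 fell, against 9.23%: Atf3 (log2 change 1.15, adjusted p = 0.0116) and Sec61b (-0.53, adjusted p = 0.0393). Atf3 went from 17.1 and 15.6 CPM to 37.0, 27.6 and 40.6 CPM, and Sec61b from 531 and 482 CPM to 381, 293 and 339 CPM. Neither overlapped between times, and the share of all genes without overlap is not given here. The count of 2 was 0 without mouse 1, mouse 2 or mice 1 and 3, 9 without mouse 3, 5 without mouse 4, 1 without mouse 5, and 5 with DESeq2.

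In the descending thin limb 1 of 33 tested members fell, against 2.35% of all genes. It was Xbp1, which went from 321 and 238 CPM to 157, 137 and 106 CPM (log2 change -1.12, SE 0.20, adjusted p = 0.0163). All 3 day-10 mice were below both 48-hour mice. The adjusted p was 0.110 without mouse 1, 0.0550 without mouse 5 and 0.0614 without mice 1 and 3. The markers of the descending thin limb summed to 11125 and 6900 CPM at 48 hours and 3052 to 4311 CPM at day 10, and their part in the result was not tested.

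The other 6 types had 0 members called by edgeR's quasi-likelihood test. With the share of all genes called, these were the distal tubule with principal cells (0.00774%), intercalated cells (0.238%), TEC-labelled cells (0.525%), endothelial cells (0.328%), interstitial cells (7.44%) and immune cluster 10 (0.0971%). At an unadjusted p under 0.05 there were, in that order, 1 of 32 members (7.92% of all genes), 1 of 32 (10.7%), 3 of 29 (9.68%), 1 of 35 (13.9%), 3 of 32 (23.1%) and 6 of 22 (7.79%). DESeq2 called 1 member in the distal tubule with principal cells and 0 in the other 5. Leaving out mouse 3 gave 4 called members in interstitial cells, leaving out mouse 1 or mouse 2 gave 1 in TEC-labelled cells, and leaving out mice 1 and 3 gave 1 in each of these 2 types. In 3 of these types mice 1 and 3 were high for Hspa5 within their own time. It measured, in the distal tubule with principal cells, 558 and 239 CPM at 48 hours and 672, 276 and 243 CPM at day 10, and in intercalated cells 619 and 165 CPM and then 813, 252 and 243 CPM. In interstitial cells it measured 1143 and 437 CPM and then 1164, 336 and 358 CPM. Atf4 in intercalated cells was higher in every day-10 mouse, at 45.5 and 36.3 CPM and then 72.2, 81.2 and 68.4 CPM, without passing (log2 change 0.71, adjusted p = 0.231). How many of all genes were so ordered in these cells is not given.

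Genes of the same pathway outside the 35 members were read from fixed lists, chosen with earlier results of these data known. In the thick ascending limb 11 of 24 translocation and N-glycosylation genes fell and 0 rose, where 5.38% of all genes fell and 4.98% rose. Rpn1, a subunit of the oligosaccharyltransferase that attaches N-glycans, measured 241 and 246 CPM and then 154, 146 and 138 CPM (log2 change -1.10, adjusted p = 0.00358). Tram1, a translocon partner, fell by 1.08 and the catalytic subunit Stt3a by 0.99. Of the COPII and ER-to-Golgi transport genes 8 of 20 fell, led by Sec24d (-1.04), Surf4 (-0.89) and Sec24c (-0.86), and of other ER folding genes 6 of 24, led by Txndc11 (-1.02), Fkbp11 (-0.98) and Fkbp2 (-0.81). Of other degradation genes 2 of 19 fell, Edem3 and Vcp, a share nearer to that of all genes.

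Other integrated stress response targets went both ways in the thick ascending limb, with 3 of 33 rising and 3 falling, against 4.98 and 5.38% of all genes. Stc2, a secreted glycoprotein, rose from 0.54 and 0.37 CPM to 7.46, 3.36 and 6.08 CPM (log2 change 3.21), and Phgdh, the first enzyme of serine synthesis, from 6.73 and 3.18 CPM to 32.3, 38.5 and 25.3 CPM (2.26). The third rise was Bbc3 (0.93), and the falls were the amino acid transporter Slc7a5 (-1.04) and the tRNA synthetases Aars (-0.66) and Wars (-0.61). Of 19 dissociation and immediate early genes 0 passed edgeR's quasi-likelihood test. At an unadjusted p under 0.05 there were 7, against 28.9% of all genes, and the list summed to 2736 and 2080 CPM and then 2609 to 3646 CPM.

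The same lists gave few calls in the proximal tubule, where 3.22% of all genes were called. Tram1 fell from 140 and 140 CPM to 98.6, 104 and 96.9 CPM (log2 change -0.75, adjusted p = 0.0298), the only call among 24 translocation genes. Of 34 other integrated stress response targets Stc2 rose from 1.46 and 0.60 CPM to 13.8, 6.85 and 11.03 CPM (3.03, adjusted p = 0.0278), the amino acid transporter Slc7a1 rose (1.65) and Psat1, a serine synthesis enzyme, fell from 42.5 and 49.3 CPM to 16.9, 16.1 and 20.9 CPM (-1.60, adjusted p = 0.0112).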

How the data were processed

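Kidney cells of 5 mice were measured by droplet RNA-seq of 3′ ends, and the mouse was the replicate, so p-values measure the spread between these 2 and 3 mice. The deposited matrices hold raw UMI counts per gene and cell, made by the authors with Cell Ranger 6.0.2, Seurat 4.0.5 and mm10, per the submitters' processing notes (the matrix headers name Cell Ranger 6.0.0). The deposited cell table gives the authors' labels, clusters, total counts, gene counts and the percent of mitochondrial counts for the cells they kept, and for every cell those counts and that percent equal the matrices. Its embedding coordinates, a score deposited by the authors, were not used. Further cell filters or doublet removal by the authors are not given in the sources used here, and no doublet caller was run.

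The members, the other gene lists, the marker lists and the tests were chosen with earlier results of these data known. The labels were merged into types, and UMIs were summed per mouse and type where each library held at least 20 cells. Podocytes, cycling proximal cells and immune cluster 12 were not tested. Genes that passed filterByExpr were fitted in edgeR 4.0.16 under R 4.3.3 with TMM scaling, and the quasi-likelihood F test was adjusted by Benjamini-Hochberg over all genes of a type, with 0.05 as the threshold. The standard error is the absolute log2 change over the root of F. CPM use raw totals, whereas log2 changes carry the TMM factors. The share of all genes without overlap between times is given for the proximal tubule and the thick ascending limb only. In other types a lack of overlap describes the values and is not a result about the members. Differences between types were tested as an interaction with the mouse as a block. Ddit3 has 2 gene identifiers, of which the second held no UMI.

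Values by mouse are given for members past the threshold, up to the 10 with the largest log2 change per type, and for Hspa5, Ddit3, Atf4, Xbp1 and Atf3 in the types described at length; of the other lists, up to 3 rises and 3 falls per type. Alternatives were DESeq2 1.42.0, RLE factors, no factors, no filter on low counts, totals without mitochondrial genes, cells under 20% mitochondrial UMIs, cells with at least 3000 UMIs, equal cells and counts per mouse, proximal cells without the injured and cycling labels, leaving out each mouse, thinning to 1000 in place of 2000 UMIs, and, chosen after seeing the data, leaving out mice 1 and 3. Counts were also simulated with 1 fixed dispersion for every gene, which was not estimated from these mice. Of genes changed 4-fold, 90.6% of 96 were recovered in the thick ascending limb (12416 genes), 94.9% of 98 in the proximal tubule (13621 genes) and 94.8% of 96 in immune cluster 0 (13715 genes). Of genes changed 2-fold, 24% of 96, 26.3% of 99 and 32.3% of 96 were recovered. Unchanged genes gave 9, 6 and 5 false calls in the same order.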

Additional observations from a re-analysis of the deposited data

Results flagged for a closer look

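The time effect differed between cell types by a direct test for 11 results, each a difference of log2 changes from 48 hours to day 10. Between the proximal tubule and the thick ascending limb these were Herpud1 (1.49), Sdf2l1 (1.17), Atf4 (1.202), Chac1 (3.38), Hyou1 (0.74), Pdia4 (0.62), P4hb (0.61), Canx (0.56) and Selenos (0.60), all with the change in the proximal tubule above that in the thick ascending limb. Between the proximal tubule and endothelial cells it was Hspa5 (-1.38), and between the proximal tubule and immune cluster 0 it was Dnajb9 (-0.78), both with the change in the proximal tubule below. Herpud1 and Sdf2l1 had standard errors of 0.17 and 0.19. That of Chac1, on few counts and tested in neither segment alone, was 0.82. Of all genes, 3.72% were called in the same direction against the thick ascending limb and 0.514% against endothelial cells. Against immune cluster 0 it was 4.05%, so the 1 call of 35 members there is not read as a result about the members. All 11 calls were lost without the mouse block.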

How the results depend on the processing

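The 29 called changes followed through the alternatives (for the thick ascending limb the 10 largest and Xbp1) kept their direction under every alternative run that gave them a value. The call itself was kept by 24 of 28 under DESeq2, 29 of 29 with RLE factors, 26 without factors, 27 without the filter, 28 without mitochondrial genes, 19 with cells under 20% mitochondrial UMIs, 27 with cells of at least 3000 UMIs and 23 of 27 with equal cells. Without mouse 1, 2, 3, 4 or 5 it was kept by 14, 11, 20, 19 and 3 of 29, and without mice 1 and 3 by 14. The cause of these losses was not tested. The number of members called in the proximal tubule (0) was 6 with DESeq2, 8 without the filter, 15 without mice 1 and 3 and 2 under 20% mitochondrial UMIs. In the thick ascending limb (21) it was 10 under 20% mitochondrial UMIs, and 8 without the filter in the descending thin limb (1). From 0 it went to 1 with DESeq2 and 1 without the filter in the distal tubule with principal cells, 1 without the filter in intercalated cells, 2 without the filter and 1 without mice 1 and 3 in TEC-labelled cells, and 3 and 1 under the same settings in interstitial cells. For merged immune cells (2) it was 5 with DESeq2, 4 with RLE factors, 5 without factors, 4 with equal cells and 0 without mice 1 and 3. For immune cluster 0 (6) it was 12 with DESeq2, 10 without the filter and 0 without mice 1 and 3, and for immune cluster 5 (4) it was 1 with DESeq2, 14 without factors, 2 with at least 3000 UMIs and 1 with equal cells.

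Leaving out each mouse gave 0 to 1 called members in the proximal tubule, 1 to 20 in the thick ascending limb, 0 to 1 in the descending thin limb, 0 to 1 in TEC-labelled cells, 0 to 4 in interstitial cells, 0 to 9 in merged immune cells, 0 to 13 in immune cluster 0 and 1 to 5 in immune cluster 5. For the differences between types it gave 2 to 8 against the thick ascending limb, 0 to 10 against the distal tubule, 0 to 1 against endothelial cells and 0 to 1 against immune cluster 0. Without the filter these differences numbered 16, 7, 9 and 1. Without the mouse block, which here is the replicate block and rests on the types coming from the same mice, they numbered 0 in each of the 4 comparisons. No paired analysis was possible for the time comparison because the mice are numbered 1 to 5 and the 2 times share no number.

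Among the changes followed through the alternatives, directions turned only for members that did not pass the test, of which 15 were followed. Other members turned too. Without factors the members with a positive change went from 10 to 13 of 34 in the proximal tubule. In the distal tubule with principal cells they went from 12 to 20 of 32. Of those followed, in the proximal tubule Xbp1 (-0.86 to 0.020 leaving out each mouse, positive without mouse 1) and Atf3 (-0.27 to 2.30, negative without mouse 2) turned. In the thick ascending limb Ddit3 (-0.74 to 0.026, positive without mouse 1, and 0.089 without mice 1 and 3) and Atf3 (-0.92 to 1.37, positive without mouse 1, 0.13 without factors and 0.76 without mice 1 and 3) turned. In immune cluster 5 they turned for Hspa5 (-0.017 without mouse 2, up to 0.48, and -0.032 with equal cells), Ddit3 (-0.13 to 0.28, negative without mouse 2 or 5, -0.0041 without the filter and -0.21 with at least 3000 UMIs) and Atf4 (-0.20 to 0.28, negative without mouse 2 or 3, -0.073 without mice 1 and 3 and -0.046 with at least 3000 UMIs). The summed level of the members in immune cluster 0 was lower at day 10 by -0.73 on the log2 scale, and by -0.37 as a mean of log2(CPM + 1) over members. With 2 and 3 mice, 2-fold changes were mostly missed in counts simulated at 1 fixed dispersion, which need not be that of the members. A member without a call is not shown to be unchanged.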

Other observations

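Pathway genes outside the 35 members recurred across cell types. Fkbp2, an ER prolyl isomerase, fell in the thick ascending limb, from 267 and 267 CPM to 204, 187 and 194 CPM (log2 change -0.81), in the descending thin limb, from 271 and 241 CPM to 151, 129 and 139 CPM (-0.93), and in interstitial cells, from 265 and 217 CPM to 137, 79.5 and 106 CPM (-1.14). In each the groups did not overlap. Stc2 rose in the descending thin limb too, from 6.91 and 5.07 CPM to 19.1, 20.7 and 17.1 CPM (1.58), beside its rises in the proximal tubule and the thick ascending limb. In immune cluster 0 Slc7a11, the cystine transporter, rose from 3.10 and 2.82 CPM to 15.8, 34.3 and 14.6 CPM (2.93), while Psat1 fell from 23.6 and 29.8 CPM to 9.28, 9.44 and 10.0 CPM (-1.43).

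Translocation and N-glycosylation genes fell in immune cluster 0 (7 of 24, against 12.5% of all genes) and rose in immune cluster 5 (6 of 23, against 7.79%). In cluster 5 the higher share of all calls depends on scaling, at 42.1% and, without factors, 89.7%, and there Dad1, an oligosaccharyltransferase subunit, went from 57.2 and 44.0 CPM to 192, 107 and 186 CPM (1.24). In podocytes, too few for a test, Hspa5 measured 1662 and 1280 CPM at 48 hours and 1295, 513 and 459 CPM at day 10, and Calr 1283 and 1243 CPM and then 1033, 637 and 697 CPM. Cycling proximal cells went the other way in the members' summed level, at 3395 and 3014 CPM and then 5558, 4418 and 4086 CPM. In Injured DTECs Atf3 measured 60.3 and 37.2 CPM and then 21.9, 13.1 and 16.7 CPM without passing (log2 change -1.69, adjusted p = 0.0744).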
